A study of Homo sapiens with 6 samples.

Results

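Box H/ACA small nucleolar RNAs (SNORA) and small Cajal body RNAs (SCARNA) were examined in RNA-seq of HEK293T cells, an established line from human embryonic kidney with a viral large T antigen. Members were the gene symbols that begin with SNORA or SCARNA and a number and are listed in all 6 tables of RPKM, reads per kilobase of row per 1000000 reads of the library. The row with the highest mean RPKM stood for its symbol, and a symbol was kept when at least 1 library reached 1 RPKM. Of 129 symbols listed (105 SNORA and 24 SCARNA, on 130 rows, among 23204 symbols in all), 90 were kept, 80 SNORA and 10 SCARNA. The other 25 SNORA and 14 SCARNA stayed below 1 RPKM in every library, and 6 of these had no read in any library. Just inside the limit, the highest library of SNORA19 was at 1.01 RPKM, of SNORA80B at 1.07 and of SNORA38 at 1.12. Just outside, SNORA47 reached 0.925 RPKM, SNORA79 0.911 and SCARNA23 0.858. These symbols had 19 to 44 reads over the 6 libraries together.

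The study was about the DEAD-box RNA helicase DDX3X, and forms of it found in medulloblastoma, in stress granule assembly and translation. Its RNA-seq asked whether they change RNA levels. The paper reported no significant effect of DDX3X depletion or over-expression on the levels of DDX3X targets or of non-targets. A plasmid for GFP alone, GFP-WT DDX3X, GFP-DDX3X T275M or GFP-DDX3X G302V (5 µg) was transfected for 32 h and GFP-positive cells were collected by flow cytometry, and control siRNA or DDX3X siRNA was applied for 48 h with no sorting described. Each of the 6 groups was 1 library, so no difference has a replicate check, no test was possible, and every interval covers counting error only. The sample labels name T275M and G302V, whereas a legend in the paper names G302V and another mutant for the RNA-seq. The labels were followed, so values given for T275M rest on the label alone. All 6 groups kept their endogenous DDX3X gene, expression was transient, and the GFP library also differs from the control siRNA library in agent, time and sorting, which cannot be told apart.

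Box H/ACA RNAs fold into hairpins that are joined by a hinge, the H box, and followed by the letters ACA close to the 3′ end. Each guides the enzyme dyskerin (DKC1), with NOP10, NHP2 and GAR1, to a uridine that becomes pseudouridine. SNORA mostly act on ribosomal RNA in the nucleolus, whereas SCARNA act on spliceosomal small nuclear RNA and are held in Cajal bodies through the protein WRAP53. Most lie inside introns of host genes, often those of ribosomal proteins and translation factors, and are trimmed out of the spliced intron. Telomerase RNA (TERC) carries the same fold. The mature RNAs have no poly(A) tail. The libraries were made from total RNA with the TruSeq RNA Sample Prep kit, whose standard protocol captures RNA with a poly(A) tail. The sources used here name the kit and not the selection step itself, so how much of each value comes from the mature RNA and how much from tailed host transcripts cannot be told apart.

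The sequences of 8 members on which the results below turn are shown 5′ to 3′ as DNA letters of GRCh37 on the strand of the RNA. Capitals mark the ACA (or ATA) that is followed by 3 bases at the 3′ end, and, in SCARNA12, letters of the boxes C and D that define the other class of guide RNA. SNORA10 (chr16:2012335-2012467, minus strand) had the highest level of all members. SNORA69 (chrX:118921316-118921447, minus), SNORA44 (chr1:28906893-28907024, minus) and SNORA7A (chr3:12881811-12881949, minus) were among the members with large differences that rest on many reads. SNORA1 (chr11:93465170-93465299, minus) was the member past 2-fold in the siRNA arm. SCARNA12 (chr12:7076500-7076769, minus), SCARNA13 (chr14:95999692-95999966, minus) and SCARNA15 (chr15:83424697-83424823, plus) stand for 3 layouts of the Cajal body RNAs, which are a mix of both classes, paired H/ACA units and a single H/ACA unit.
SNORA10: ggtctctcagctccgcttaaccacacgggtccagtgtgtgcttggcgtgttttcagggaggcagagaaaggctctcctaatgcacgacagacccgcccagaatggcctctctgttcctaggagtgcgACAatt
SNORA69: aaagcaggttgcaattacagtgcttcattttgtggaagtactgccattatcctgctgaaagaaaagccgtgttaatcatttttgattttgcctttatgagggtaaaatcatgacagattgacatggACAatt
SNORA44: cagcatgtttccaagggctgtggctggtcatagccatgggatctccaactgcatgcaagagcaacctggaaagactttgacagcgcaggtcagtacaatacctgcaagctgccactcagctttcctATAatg
SNORA7A: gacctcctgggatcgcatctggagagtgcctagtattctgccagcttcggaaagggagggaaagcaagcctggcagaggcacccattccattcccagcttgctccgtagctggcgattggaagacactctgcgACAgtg
SNORA1: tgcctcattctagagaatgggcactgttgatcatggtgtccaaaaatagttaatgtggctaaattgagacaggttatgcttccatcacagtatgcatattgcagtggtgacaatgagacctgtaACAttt
SCARNA12: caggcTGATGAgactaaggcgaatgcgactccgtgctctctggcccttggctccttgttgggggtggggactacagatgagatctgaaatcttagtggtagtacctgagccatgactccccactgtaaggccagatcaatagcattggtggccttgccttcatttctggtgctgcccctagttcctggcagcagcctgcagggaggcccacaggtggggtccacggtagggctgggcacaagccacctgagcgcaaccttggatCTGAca
SCARNA13: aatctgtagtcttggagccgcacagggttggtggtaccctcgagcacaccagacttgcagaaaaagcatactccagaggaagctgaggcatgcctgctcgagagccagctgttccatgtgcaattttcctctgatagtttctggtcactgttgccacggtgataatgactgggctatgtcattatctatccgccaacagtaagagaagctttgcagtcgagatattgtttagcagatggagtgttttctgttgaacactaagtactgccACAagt
SCARNA15: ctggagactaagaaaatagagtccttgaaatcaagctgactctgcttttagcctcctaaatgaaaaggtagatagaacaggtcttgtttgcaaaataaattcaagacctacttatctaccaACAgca

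The ACA letters were more frequent at the end of members than of other rows. Since the names SNORA and SNORD stand for the 2 classes of guide RNA, this describes the rows and is no independent check. ACA followed by exactly 3 bases closed 65 of 79 kept SNORA (82.3%; SNORA59A was left out because its row of 304 bases joins 2 copies), and ATA closed another 8.86%, among them SNORA44. Among SCARNA, 7 of 10 (70.0%) ended this way. The ending occurred in 0.826% of 242 SNORD rows (box C/D RNAs, guides of ribose methylation) and in 1.63% of 245 other rows of 100 to 350 bases. The 3 SCARNA without it were SCARNA9, SCARNA10 and SCARNA12, and these held the D box letters CTGA within the last 12 bases, as did 84.7% of SNORD and 3.80% of SNORA. SCARNA10 and SCARNA12 also held TGATGA, the core of the C box, within the first 20 bases, which 67.4% of SNORD and 0 of 79 kept SNORA did. The H box pattern ANANNA within bases 50 to 80 was found in 88.6% of kept SNORA, in 70.0% of kept SCARNA, and in 33.5% both of SNORD and of the other rows. All searches were on the strand of the RNA, and a match describes letters, not a working box.

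Recovered depth ran from 43720000 reads in the G302V library to 180870000 in the DDX3X siRNA library, and 3 reads, the limit used for a count of 0, stood for 0.0166 to 0.0686 RPM (reads per 1000000 reads of the library). DDX3X was at 119 RPKM with GFP, at 2890, 3280 and 1910 RPKM with the wild type, T275M and G302V plasmids, and at 107 RPKM with control siRNA and 31.3 with DDX3X siRNA, each in the direction of its label. The labels give the cell type as neuronal, but only 2 of 10 neuronal markers (SYT1 and TUBB3) reached 1 RPKM in every library and DCX and STMN2 had 0 to 2 reads. Of 6 markers of kidney epithelium, KRT8 and KRT18 reached 1 RPKM in every library and PAX8 had 0 to 2 reads.

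A few SNORA held most of the reads. SNORA10 was at 1085 RPKM with GFP, 935 with the wild type plasmid, 923 with T275M, 1028 with G302V, 1007 with control siRNA and 982 with DDX3X siRNA, and its highest library was 1.18 times its lowest. SNORA10 and SNORA64 (mean 568 RPKM) lie in RPS2, SNORA52 (731) in RPLP2, SNORA62 (308) in RPSA and SNORA27 (251) in RPL21, all genes of ribosomal proteins. SNORA67 (536) and SNORA48 (515) lie in EIF4A1, a DEAD-box helicase of translation initiation. These 7 SNORA of 100 RPKM or more, a limit chosen after the levels were seen, held 79.7% to 82.3% of all SNORA reads in a library. SNORA15, in the chaperonin gene CCT6A, came next with a mean of 80.9 RPKM. The median kept SNORA had a mean of 6.44 RPKM (range 0.53 to 993), and 52 of 80 were under 10 RPKM.

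SCARNA were low and led by 1 member. SCARNA12, which lies in the prohibitin gene PHB2, was at 34.7 RPKM with GFP, 29.1 with wild type, 26.6 with T275M, 28.0 with G302V, 21.9 with control siRNA and 24.3 with DDX3X siRNA. It was lower in both siRNA libraries than in any plasmid library, and it held 48.9% to 61.6% of all SCARNA reads. The others had means of 0.806 RPKM (SCARNA9) to 6.01 RPKM (SCARNA16, in the long noncoding RNA gene SNHG20), and the median over all 10 was 4.11 RPKM. On the same scale the median kept SNORD was at 25.4 RPKM, so per length the median SNORD was above the median of both families. Rows of SNORA had a median length of 133 bases and rows of SCARNA 162 bases, and 1 read on 133 bases was worth 0.0416 to 0.172 RPKM depending on the library. Over the 6 libraries together, the median SNORA had 397 reads and the median SCARNA 307, and 18 SNORA but 0 SCARNA had fewer than 100.

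**Figure D1:**
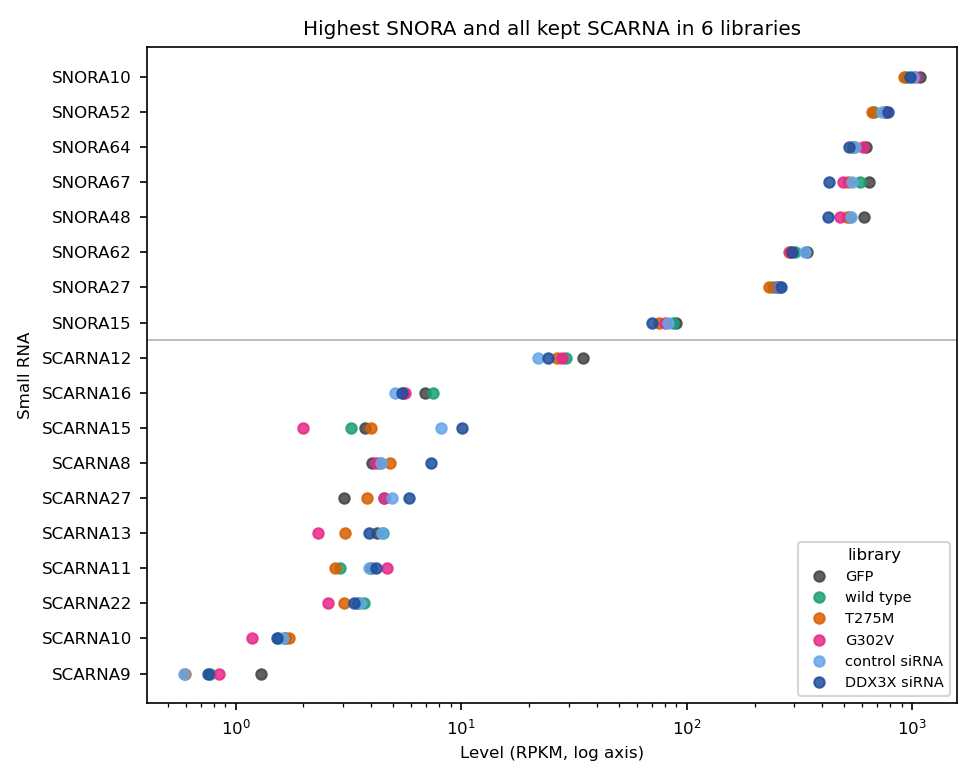
Level in RPKM (log axis) of the 8 SNORA with the highest mean and of the 10 kept SCARNA, with 1 point per library coloured by group and no error bars since each group is 1 library. SNORA10 sits between 923 and 1085 RPKM, and SCARNA12, the highest SCARNA, between 21.9 and 34.7 RPKM.

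Summed over the 80 SNORA, the GFP library had 733 RPM (95% Wilson interval 726 to 740), the highest of the 6. The other libraries had 650.0 (wild type), 625 (T275M) and 643 (G302V) in the plasmid arm, and 654 with control siRNA and 623 with DDX3X siRNA. SNORD sums also were highest with GFP, at 1045 RPM against 838 to 951 in the other 5. For the 10 SCARNA, GFP again was highest at 15.2 RPM (14.2 to 16.3), and the others held 12.1 to 13.7. Without SCARNA12 this order was lost, since GFP then had 5.83 RPM, wild type 5.85, control siRNA 6.13 and DDX3X siRNA 6.85. In bulk RNA, a change in the make-up of the cells and a change of RNA per cell cannot be told apart.

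With DDX3X siRNA against control siRNA, SNORA and SCARNA differed little. Differences are given throughout as log2(RPKM + 1) of the first library minus that of the second, with the 95% counting interval from exact binomial shares of the reads, and a member entered a comparison with 1 RPKM or more and 10 reads or more in at least 1 library. A difference of 1, that is 2-fold, marks what is counted as past the threshold. Of 72 SNORA that entered, 1 was past 2-fold higher and 0 lower, and of 9 SCARNA none in either direction, where the share of all 12694 genes past it was 0.0473% higher and 0.063% lower. Of 248 other genes with rows under 200 bases, 2 were higher and 1 lower, beside which 1 of 72 does not set SNORA apart. The SNORA past 2-fold was SNORA1, with 84 reads (3.57 RPKM) against 11 reads (1.25 RPKM) and a difference of 1.02 (0.43 to 1.55). SNORA1 was at 4.49, 4.41, 3.56 and 2.11 RPKM with GFP, wild type, T275M and G302V. Its control siRNA value was thus the lowest of the 6 libraries, and its DDX3X siRNA value lay within the range of the plasmid libraries. The host of SNORA1, TAF1D, a subunit of the factor that recruits RNA polymerase I, was at 0.12. The median difference was 0.15 for SNORA, 0.09 for SCARNA, 0.08 for SNORD and -0.02 for all genes.

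In this comparison the highest SNORA and the rest had summed differences of opposite sign. Of the 7 highest SNORA, SNORA48 was at -0.34 (-0.39 to -0.29) and SNORA67 at -0.33 (-0.38 to -0.28), beside -0.31 for their host EIF4A1, and SNORA62 was at -0.19 (-0.25 to -0.14). SNORA52 was higher at 0.08 (0.04 to 0.12). The 7 together were at -0.11 (-0.12 to -0.09) on the log2 scale of summed RPM, whereas the 73 SNORA below 100 RPKM together were at 0.09 (0.05 to 0.13). Among SCARNA, SCARNA8, in the gene of the spindle protein HAUS6, had the one interval that left out 0, at 0.63 (0.20 to 1.07) with 175 reads against 39. The summed SCARNA were at 0.15 (0.04 to 0.27).

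In the plasmid arm, most members were lower with each DDX3X plasmid than with GFP. With wild type against GFP, 48 of 68 SNORA had a difference below 0 (median -0.18), as had 37.9% of all genes. The interval lay below 0 for 22 SNORA (21.3% of all genes) and above 0 for 1 (41.1% of all genes). None was past 2-fold higher, where 0.232% of all genes were. Past 2-fold lower were 2, SNORA28 (2 reads against 12) and SNORA75, in the nucleolin gene NCL (14 against 32), and both rest on few reads. All genes include the members, and these 2 were the only ones of 12915 genes past 2-fold lower (0.0155%). SNORA28 reached 1 RPKM in the GFP library alone, so it was kept and entered through the library where it was high. With T275M against GFP, 51 of 65 SNORA were below 0 (median -0.25), as were 37.8% of all genes, and 0 were past 2-fold higher (0.294% of all genes) and 3 lower (0.0774%). They were SNORA68 at -1.05 (-1.50 to -0.60), SNORA75 at -1.05 (-1.74 to -0.31) and SNORA7B at -1.26 (-1.79 to -0.41), the last with 3 reads against 19. Of SNORD, 0 of 123 were past 2-fold lower with wild type and 3.31% of 121 with T275M. Of 226 other genes with rows under 200 bases, 5 were higher and 0 lower with wild type. With T275M, 7 of 218 such genes were higher and 2 lower. With both libraries set against the same GFP library, these differences share its counting error.

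G302V against GFP had the most members past the threshold of the 3 comparisons with GFP, with 57 of 68 SNORA below 0 (45.2% of all genes) and a median of -0.35. Past 2-fold were 0 higher (0.0861% of all genes) and 6 lower (0.219%), which is 8.82% of the SNORA that entered. Of 122 SNORD, 0 were past 2-fold higher and 12.3% lower. Of 211 other genes with rows under 200 bases, 3 were higher and 4 lower. All genes include the members and SNORD, and of the 28 genes past 2-fold lower, 6 were these SNORA and 15 were SNORD. SNORA68 had 24 reads (4.13 RPKM) against 122 (16.7 RPKM) and the largest difference, -1.79 (-2.34 to -1.24). SNORA7A, in RPL32, had 61 reads against 174 and was at -1.11 (-1.52 to -0.71), and SNORA21, in RPL23, had 26 against 74 and was at -1.03 (-1.60 to -0.46). SNORA28, SNORA41 and SNORA75 had 1 to 9 reads with G302V against 12 to 34. SNORA28 again entered through the GFP library alone. The 7 highest SNORA together were at -0.14 (-0.17 to -0.12) on the log2 scale of summed RPM, and the 73 others at -0.38 (-0.43 to -0.33). Of the 7, 4 had an interval below 0, which were SNORA67 at -0.38 (-0.44 to -0.31), SNORA48 at -0.35 (-0.42 to -0.29), SNORA62 at -0.25 (-0.34 to -0.17) and SNORA10 at -0.08 (-0.13 to -0.03). The interval held 0 for SNORA64 at -0.05 (-0.11 to 0.01), SNORA52 at 0.02 (-0.04 to 0.08) and SNORA27 at 0.03 (-0.07 to 0.13).

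SCARNA had no member past 2-fold in any of the 3 comparisons with GFP, in which all 10 entered. The shares of all genes past it were 0.0861% to 0.294% higher and 0.0155% to 0.219% lower. At these shares, and at the 2.94% to 8.82% of SNORA that were lower, 0 of 10 does not set SCARNA apart. Their median was 0.00 for wild type, -0.22 for T275M and -0.29 for G302V. SCARNA12 was at -0.25 (-0.42 to -0.07), -0.37 (-0.56 to -0.18) and -0.30 (-0.50 to -0.10) in that order, and its host PHB2 at -0.17, -0.25 and -0.18. SCARNA13, a tandem H/ACA RNA in the long noncoding RNA gene SNHG10, had 64 reads in the GFP library and 78, 40 and 28 in the wild type, T275M and G302V libraries. Of these 3 comparisons, its interval left out 0 in that of G302V, at -0.66 (-1.14 to -0.16). The host SNHG10 was also lower there, at 8.49 RPKM with GFP and 6.04, 6.59 and 5.85 RPKM with wild type, T275M and G302V. SNORD had medians of -0.19, -0.31 and -0.45 in the same 3 comparisons, and the medians of all genes were 0.05, 0.07 and 0.03. Other genes with rows under 200 bases had 0.01, -0.03 and -0.06.

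**Figure D2:**
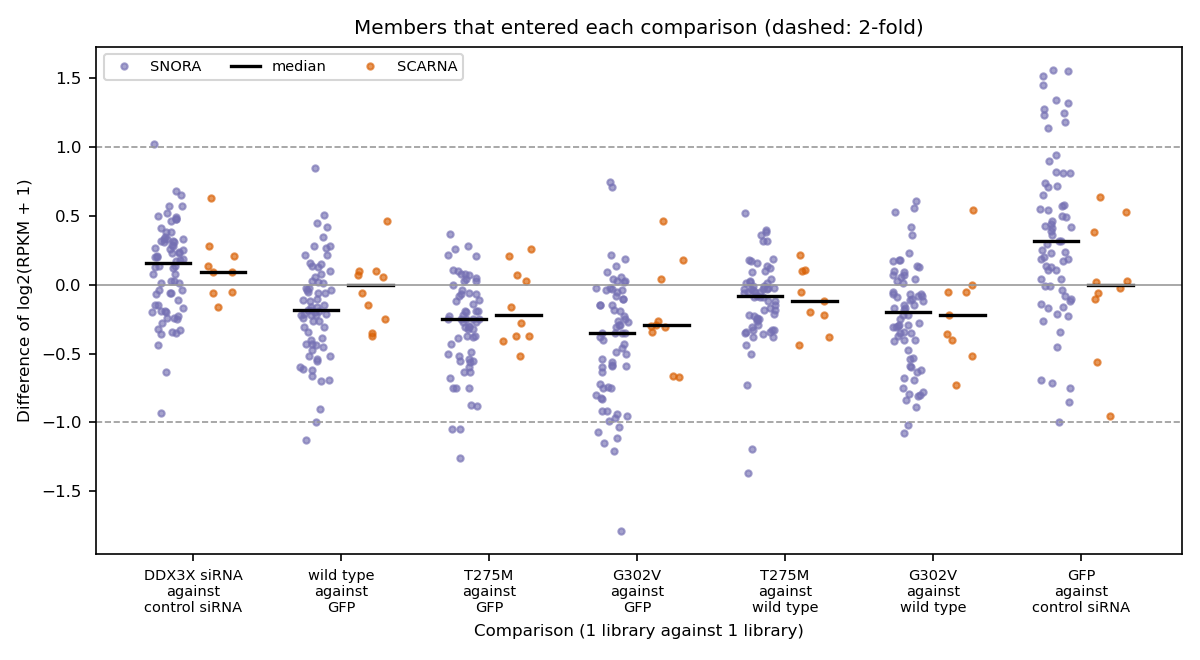
Difference of log2(RPKM + 1) for each SNORA and SCARNA that entered each of the 7 comparisons of 1 library with 1 library, with the median of each family as a black bar and 2-fold as dashed lines. The SNORA median runs from -0.35 with G302V against GFP to 0.32 with GFP against control siRNA. None of the 9 or 10 SCARNA per comparison passes a dashed line.

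Both mutants were also set against wild type. With T275M against wild type, the SNORA median was -0.08 and the SCARNA median -0.12. None of 65 SNORA was past 2-fold higher (0.0154% of all genes) and 2 were lower (0.0617%). Of 227 other genes with rows under 200 bases, 2 were higher and 4 lower, beside which 2 of 65 does not set SNORA apart. SNORA7B had 3 reads against 24 and was at -1.37 (-1.88 to -0.54). SNORA2B had 0 reads against 11 and was at -1.19 (-1.19 to -0.37). It reached 1 RPKM in the wild type library alone, so it was kept and entered through the library where it was high. A limit of 3 reads in the T275M library would put it 2.78-fold lower in RPM. That takes the 11 reads as exact, and the counting interval allows a smaller change. With G302V against wild type, the SNORA median was -0.20 and the SCARNA median -0.22, with 0 of 68 SNORA past 2-fold higher (0.00771% of all genes) and 2 lower (0.177%). Of 225 other genes with rows under 200 bases, 0 were higher and 4 lower, beside which 2 of 68 does not set SNORA apart. SNORA25, in TAF1D, had 21 reads against 73 and was at -1.08 (-1.68 to -0.48), with TAF1D itself at -0.48. SNORA71A had 10 reads against 38 and was at -1.02 (-1.70 to -0.28). SCARNA13 again had an interval below 0, at -0.73 (-1.20 to -0.25), while SNORA10 and SNORA52 were higher with G302V than with wild type, at 0.14 (0.09 to 0.19) and 0.18 (0.13 to 0.24).

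The comparison of the 2 control libraries had the most members past the threshold. It is not independent of the others. The GFP library is the one the DDX3X plasmids were set against, here with opposite sign, and DDX3X siRNA was set against the same control siRNA library. With GFP against control siRNA, 11 of 68 SNORA were past 2-fold higher (16.2%) and 0 lower, where 0.432% of all genes were higher and 0.0707% lower. SNORA68 was at 1.56 (1.12 to 2.0) with 122 reads against 45. SNORA69, in RPL39, was at 1.55 (1.12 to 1.97) with 135 against 51, and SNORA44, in the small nucleolar RNA host gene SNHG12, at 1.52 (1.02 to 2.02) with 88 against 32. The other 8 were SNORA51, 75, 33, 1, 55, 72, 6 and 9, at 1.45 down to 1.14. None of the 11 was among the 7 highest, whose largest difference was 0.25 for SNORA67. Of 121 SNORD, 34 were past 2-fold higher. Of 227 other genes with rows under 200 bases, 4 were higher and 5 lower. All genes include the members and SNORD, which were 11 and 34 of the 55 genes past 2-fold higher. SCARNA again had none of 10, and their median was 0.00 beside 0.32 for SNORA and 0.39 for SNORD. At the share of all genes, and at the 16.2% of SNORA, 0 of 10 does not set SCARNA apart. The interval of SCARNA12 lay above 0, at 0.64 (0.45 to 0.82). That of SCARNA15 lay below 0, at -0.95 (-1.51 to -0.39), and its highest library was 5.12 times its lowest.

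SCARNA15 had 26 reads with GFP, 26 with wild type, 24 with T275M, 11 with G302V, 70 with control siRNA and 233 with DDX3X siRNA, which are 3.73, 3.26, 3.97, 1.98, 8.16 and 10.1 RPKM. Both siRNA libraries were above all 4 plasmid libraries. SNORA68 had the opposite pattern in part, with 16.7 RPKM with GFP, 8.51 with wild type, 7.59 with T275M, 4.13 with G302V, 5.01 with control siRNA and 3.70 with DDX3X siRNA. SNORA69 stood at 18.6, 15.5, 12.7, 9.19, 5.72 and 5.45 RPKM in the same order, and SNORA51, which lies in the gene of the box C/D protein NOP56, at 18.9, 17.5, 12.1, 9.53, 6.28 and 4.73 RPKM. In SNORA69 and SNORA51, all 4 plasmid libraries were above both siRNA libraries.

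**Figure D3:**
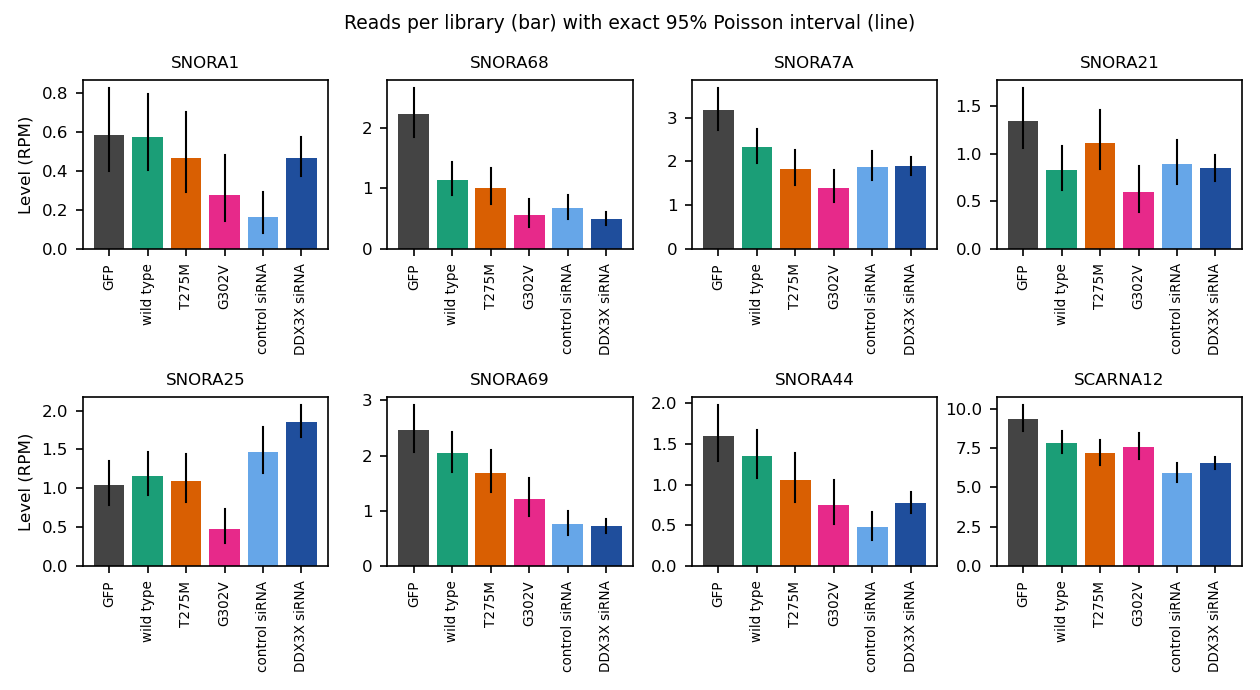
RPM in each of the 6 libraries (bars, axis from 0) with the exact 95% Poisson interval of the count (line) for the 7 SNORA that the rule on change selects and for SCARNA12. SNORA68 has 122 reads with GFP and 24 with G302V, and SNORA1 has 11 reads with control siRNA and 84 with DDX3X siRNA.

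The order GFP highest and G302V lowest of the 4 plasmid libraries was noticed in these values and then counted. It held for 28 of 80 SNORA (35%), for 0 of 10 SCARNA and for 49.6% of 127 SNORD, where the share of all genes was 9.22% and of 286 other genes with rows under 200 bases 10.1%. At the share of all genes, 0 of 10 does not set SCARNA apart. The full order GFP, wild type, T275M, G302V held for 21 of 80 SNORA (26.2%), 33.1% of SNORD, 7.34% of the other short rows and 7.22% of all genes. GFP was highest of all 6 libraries for 38 of 80 SNORA (47.5%), where the share was 56.7% of SNORD, 15.7% of the other short rows and 15.2% of all genes. The control siRNA library was lowest for 25 SNORA (31.2%), for 37.8% of SNORD, 17.1% of the other short rows and 16.8% of all genes. Depth fell in part along the same order, since GFP had 54850000 reads, wild type 62740000, T275M 47550000 and G302V 43720000, and its part in the result was not tested.

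Host genes differed less between libraries than their members did. An annotated gene of the same strand that spans the row was in the tables for 83 of 90 members, under 62 host genes. Past 2-fold were 0 hosts in any comparison, where 0.00771% to 0.432% of all genes were higher and 0.0155% to 0.219% lower. At these shares the 0 does not set the hosts apart. The median member had 7.24% of the RPKM of its host, and members with few reads spread more by counting error alone. The median host difference lay between -0.11 and 0.04 over the 7 comparisons. With G302V against GFP, the interval of the member lay wholly below the value of its host for 31 of 72 members and above it for 0. With GFP against control siRNA it lay above the host for 30 of 72 and below for 7. In the siRNA arm it lay above the host for 15 of 74 and below for 6. The comparisons of GFP with G302V and with control siRNA share the GFP library, with opposite sign.

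The members of 100 RPKM or more stayed close to their hosts. The difference of these 7 minus that of the host was at most 0.22 in size over the 7 comparisons, and at most 0.08 with wild type against GFP. SNORA10, for example, was at -0.22, -0.23 and -0.08 against GFP with wild type, T275M and G302V, and RPS2 at -0.23, -0.24 and -0.05. For the 21 SNORA and SCARNA of 10 to 100 RPKM, the distance from the host had a median of -0.47 with G302V against GFP and reached 1.55 with GFP against control siRNA, where SNORA69 was at 1.55 and RPL39 at 0.00. Each of the 7 highest lies wholly inside an annotated exon of its strand. All but SNORA10 lie there only in transcripts annotated as retained intron, nonsense-mediated decay or lncRNA. Reads of such host transcripts and of the small RNA are one number in these tables. This position is not particular to the 7, since 46 of the 80 kept SNORA lie wholly inside an annotated exon. SNORA7A is one of them, at -1.11 with its host RPL32 at -0.15 with G302V against GFP. Whether position goes with distance from the host was not tested.

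**Figure D4:**
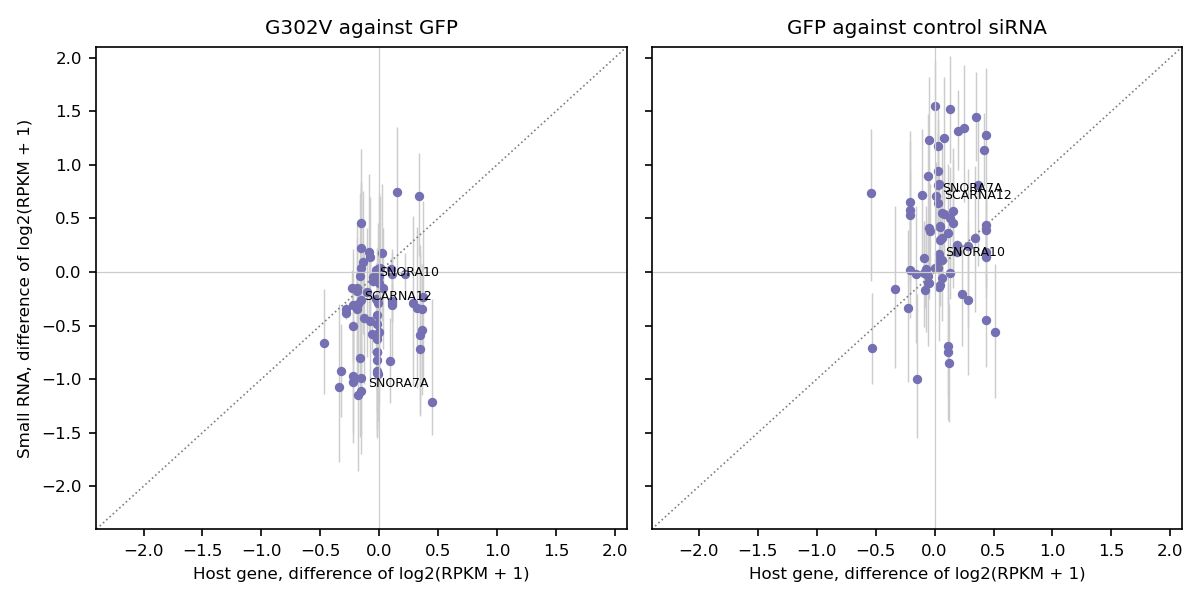
Difference of log2(RPKM + 1) of members (all with a host but SNORA68) against that of the host gene, for G302V against GFP and GFP against control siRNA, with the 95% counting interval of the member as a grey line and equality as a dotted line. SNORA10 sits beside the dotted line in both, whereas SNORA7A is at -1.11 and 0.71 with its host RPL32 at -0.15 and 0.01. Both comparisons use the same GFP library, with opposite sign.

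Over all kept members, 51 rows (46 SNORA and 5 SCARNA) lay wholly inside an annotated exon of a gene of the same strand, 6 lay in part and 33 in none. The median of their mean levels was 7.61 RPKM inside exons and 1.39 RPKM in none. Relative to the host, the median member had 7.24% of the RPKM of its host (range 0.264% to 359%), with 18.4% inside exons and 3.65% outside. Above its host were SNORA57, in CSKMT (359%), and SNORA61, in SNHG12 (106%). At the other end were SNORA80B (0.264%) and SNORA75, in NCL (0.293%). With G302V against GFP, the median difference was -0.38 for the members inside exons and -0.18 for those in none, and with GFP against control siRNA it was 0.24 and 0.46.

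Members of 1 host did not all have the same difference. TAF1D holds 6 kept SNORA, and its own level was 39.5 RPKM with GFP, 54.7 with wild type, 55.6 with T275M, 39.0 with G302V, 28.8 with control siRNA and 31.4 with DDX3X siRNA. With G302V against GFP it was at -0.02, and all 6 members were below 0 with intervals that left it out, from -0.40 for SNORA40 to -0.94 for SNORA25. With GFP against control siRNA, TAF1D was at 0.44 and the 6 ran from -0.45 (-0.89 to -0.01) for SNORA25 to 1.28 (0.59 to 1.90) for SNORA1, which do not overlap. With wild type against GFP, TAF1D was at 0.46 while SNORA40 was at -0.43 (-0.70 to -0.17) and SNORA32 at -0.66 (-1.13 to -0.19).

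SNHG12 holds SNORA61, SNORA44 and SNORA16A. With GFP against control siRNA these were at -0.01 (-0.25 to 0.23), 1.52 (1.02 to 2.02) and 0.50 (0.02 to 0.98), and SNHG12 at 0.13. EIF4A2, a paralog of EIF4A1, holds SNORA4, SNORA63 and SNORA81, whose mean levels were alike at 58.4, 58.1 and 57.8 RPKM. They were at 0.42, 0.30 and 0.43 with GFP against control siRNA, where EIF4A2 was at 0.05. With wild type against GFP they were at 0.03 (-0.15 to 0.20), 0.06 (-0.12 to 0.25) and -0.21 (-0.37 to -0.05), where EIF4A2 was at 0.09. Among hosts with a role in the particle itself, DKC1 holds SNORA36A (25, 28, 21, 9, 22 and 46 reads with GFP, wild type, T275M, G302V, control siRNA and DDX3X siRNA) and SNORA56 (17, 22, 16, 13, 41 and 138 reads). SNORA56 was at -0.75 (-1.38 to -0.10) with GFP against control siRNA, with DKC1 at 0.11.

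**Figure D5:**
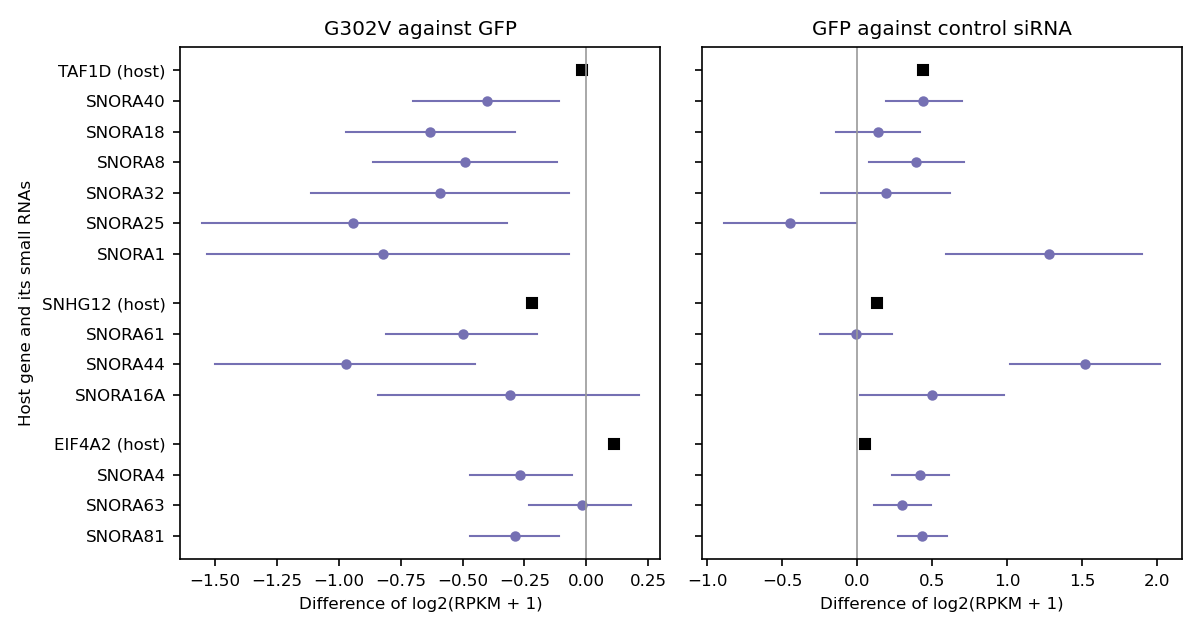
Difference of log2(RPKM + 1) for 3 host genes (black squares) and their kept SNORA (circles with 95% counting intervals), for G302V against GFP and GFP against control siRNA. The 6 SNORA of TAF1D are all below 0 with G302V, and SNORA44 is apart from SNORA61 in the same host at 1.52 against -0.01 in the second comparison. Both comparisons use the same GFP library, with opposite sign.

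The genes of the H/ACA particle and of Cajal bodies were set beside the members. Of 24 such genes in the tables, none was past 2-fold in the siRNA arm or between plasmid libraries. Shares of all genes past it there were 0.00771% to 0.294% higher and 0.0155% to 0.219% lower, so 0 of 24 does not set these genes apart. Read counts of the core proteins were 2299 or higher in every library, where the median SNORA had 397 over all 6. The 4 core proteins were at 100 to 119 RPKM (DKC1), 95.1 to 113 (NOP10), 343 to 423 (NHP2) and 56.8 to 73.5 (GAR1), and their median difference was -0.16 with DDX3X siRNA against control siRNA, -0.01, -0.20 and -0.21 with wild type, T275M and G302V against GFP, and 0.05 with GFP against control siRNA. In the siRNA arm the highest of the 24 was TERT, the telomerase protein, at 0.29 (0.20 to 0.38), and the lowest GEMIN2, of the SMN complex, at -0.43 (-0.50 to -0.36). Against GFP, the highest were TERC with wild type at 0.44 (0.08 to 0.79), the Cajal body protein USPL1 with T275M at 0.35 (0.27 to 0.44) and the noncanonical poly(A) polymerase PAPD5 with G302V at 0.18 (0.11 to 0.26).

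The lowest in those 3 comparisons were TERT with wild type at -0.25 (-0.35 to -0.14) and TERC with the mutants, at -0.47 (-0.88 to -0.05) with T275M and -0.40 (-0.82 to 0.03) with G302V. TERC, itself an H/ACA RNA of the Cajal body, had 56 reads with GFP, 97 with wild type, 29 with T275M, 29 with G302V, 16 with control siRNA and 42 with DDX3X siRNA. Against wild type it was the lowest of the 24 with both mutants, at -0.91 (-1.29 to -0.51) with T275M and -0.84 (-1.23 to -0.43) with G302V, where the highest were USPL1 at 0.22 (0.13 to 0.30) and KIAA0947 at 0.19 (0.13 to 0.25). With GFP against control siRNA, TERC was the 1 gene of the 24 past 2-fold, at 1.10 (0.71 to 1.42), where 0.432% of all genes were higher. The lowest was KIAA0947 at -0.26 (-0.31 to -0.20).

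Near-identical copies limit some of these values, since reads of copies cannot be assigned with certainty. SNORA7A and SNORA7B are 98.6% identical over their aligned rows, and SNORA36A and SNORA36C 94.6%, SCARNA9 and SCARNA9L 92.6%, SNORA80 and SNORA80B 91.9% and SNORA14A and SNORA14B 91.1%. Of these 10 members, 6 were kept. SNORA7A had 174, 146, 87, 61, 127 and 342 reads in the order GFP, wild type, T275M, G302V, control siRNA and DDX3X siRNA, and SNORA7B 19, 24, 3, 16, 14 and 47, so the copies were not in 1 ratio across libraries. Rows short enough to be covered many times are a further limit, as SNORA10 had 43.9 to 178 reads per base of its row. Removal of duplicate reads is stated in a mapping text written for another assay (CLIP-seq) to which the RNA-seq methods refer, and what it did to the highest counts was not tested.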

How the data were processed

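The values deposited by the authors were RPKM, reads per kilobase of row per 1000000 reads, in 1 table per library with 39618 rows. Per the methods, in which RNA-seq mapping is referred to the CLIP-seq text, the authors trimmed reads with cutadapt, aligned them with BWA 0.5.5 to NCBI Build 37, RefSeq, exon junctions and AceView, removed duplicates and scaled counts by length and total reads. The methods call the unit FPKM and the headers RPKM. Libraries were grouped by the sample labels, which name T275M and G302V where a legend in the paper names another mutant beside G302V.

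In each library, RPKM times row length was a whole multiple of 1 step (tolerance 0.1) in 100% of the 1477 to 1606 rows that could be checked, which gave the reads and the depth. Those reads served for intervals (95%, exact for ratios and Wilson for sums) and filters, and not for a count model, since each group was 1 library. Code for ratios and recovery was tested on simulated data. Differences used log2(RPKM + 1), which understates changes of low rows, and 2-fold as the threshold. Reads are not independent molecules, so intervals and the limit of 3 reads cover counting error only.

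Hosts and exons came from GENCODE 44 mapped to GRCh37, taking the shortest gene of the same strand that spans the row and is in the tables, read-through genes left out. The host and sequence of SNORA68 are not reported here. Sequences also came from GRCh37, and identities from Biopython 1.88 alignments. Named genes were the 8 SNORA and 8 SCARNA of highest mean RPKM, the 3 largest rises and falls past 2-fold with 50 reads or more, members at the limit, their hosts, and the particle list. SNORA28, 75, 41, 7B, 2B, 71A, 51, 33, 55, 72, 6, 9, 32, 40, 57, 61, 16A, 4, 63, 81, 36A and 56, SCARNA9, SCARNA10 and the near-identical copies fall outside this rule and were named after their values were seen. The members and lists were chosen with earlier results of these data known. Python 3.11.15, NumPy 2.4.6, pandas 2.3.3 and SciPy 1.17.1 were used.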

Additional observations from a re-analysis of the deposited data

How the results depend on the processing

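Counts of members past 2-fold depended on the pseudocount. In the order DDX3X siRNA against control siRNA, wild type, T275M and G302V against GFP, T275M and G302V against wild type, and GFP against control siRNA, the counts were 1, 2, 3, 6, 2, 2 and 11. With a pseudocount of 10 RPKM they were 0 in all 7. RPM with a pseudocount of 1 gave 0 in all but G302V against GFP, with 1. With a pseudocount of 0.1 they were 3, 4, 6, 18 and, in the last comparisons, 9 (G302V against wild type) and 21. A threshold of 1.5-fold gave 6, 10, 12, 27, 17 (G302V against wild type) and 27 (GFP against control siRNA). A mean of 1 RPKM or more gave 1 for wild type against GFP and 1 for T275M against wild type, and median-ratio scaling gave 1 for G302V against wild type. All 10 ratios past 2-fold of the members named by rule fell below it under at least 1 alternative.

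Summed SNORA reads under median-ratio scaling moved from -0.07 to -0.02 with DDX3X siRNA, from -0.17 to -0.23 with wild type and from -0.23 to -0.29 with T275M against GFP, and from -0.02 to 0.03 with G302V against wild type. SNORA10 turned from -0.04 to 0.01 with DDX3X siRNA. Without the member with the most reads, summed SNORA were at -0.22 with G302V against GFP and -0.05 against wild type, and summed SCARNA turned from -0.15 to 0.00 with wild type against GFP and from 0.33 to -0.07 with GFP against control siRNA. Without the members of 100 RPKM or more, an alternative chosen after seeing the data, summed SNORA turned to 0.09 with DDX3X siRNA and moved to -0.38 with G302V against GFP, -0.22 against wild type and 0.35 with GFP against control siRNA. The causes were not tested. With no filter beyond 1 read, with intervals that leave out 0, with the DDX3X siRNA library thinned to the control depth, and with rows of a symbol summed, each count stayed within 1.5 times and each sum within its counting interval. No paired analysis was possible because each group holds 1 library, and none could be left out. Depth limits the low members, of which 18 had fewer than 100 reads over 6 libraries.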
